A study of Mus musculus with 25 samples.

Results

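The CXC chemokines measured here are the 10 genes Cxcl1, Cxcl2, Cxcl5, Cxcl9, Cxcl10, Cxcl12, Cxcl13, Cxcl14, Cxcl15 and Cxcl16, out of 18193 genes with a probe set of a single symbol on the array. They were chosen by name. Each gene was followed through its brightest of 19 probe sets, taken over all 25 arrays. Of the 10 genes, 8 passed the filter on dim genes and were tested among 12937 genes. Cxcl2 and Cxcl5 fell below the filter and are given from a fit without it. Lung RNA came from female wildtype C57BL/6J mice, 14 to 17 weeks of age and 20 to 25 g in weight. The control group received PBS (n = 4). The fTyS, SEW and FTY groups received (S)-FTY-phosphonate, SEW-2871 or FTY720 at 0.1 mg/kg, injected into the peritoneum 2 times per week (n = 3 each). The radiation group received a single dose of 25 Gy to the thorax (n = 3), and 3 more groups received that dose together with one compound each (n = 3 each), written radiation+FTY, radiation+SEW and radiation+fTyS. FTY720 is a sphingosine analogue that cells phosphorylate into an agonist of sphingosine 1-phosphate receptors, the phosphonate carries a stable group in place of that phosphate, and SEW-2871 is an agonist of one of these receptors without a sphingosine-like structure. The interval between irradiation and collection is not given in the sources used here.

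CXC chemokines are small secreted proteins that guide leukocytes through receptors of the CXCR family. Cxcl1, Cxcl2 and Cxcl5 attract neutrophils through Cxcr2, and epithelial cells are the known source of Cxcl5 in lung. Cxcl9 and Cxcl10 are induced by interferon and attract activated T cells and natural killer cells through Cxcr3. Cxcl13 attracts B cells through Cxcr5 and marks lymphoid follicles, Cxcl12 retains Cxcr4-bearing cells in tissues, and Cxcl16 is a membrane-bound ligand of Cxcr6 that Adam10 can shed. Cxcl14 is expressed by resting epithelium and stroma, and Cxcl15, also called lungkine, is made by lung epithelium.

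Promoter sequences were read from RefSeq (GRCm38.p6) as the 170 bases before each annotated start, and 8 of the 10 genes matched; Cxcl5 and Cxcl16 are named only. Shown are Cxcl13, Cxcl9 and Cxcl10, the genes with the widest spread among those tested, and Cxcl1, a gene with a small spread. Capitals mark matches to GGG and TTCC with any 3 bases between them, a pattern like an NF-kB site, on either strand, with overlapping matches joined. All 4 windows lie on chromosome 5, at chr5:95956769-95956938 (plus strand) for Cxcl13, chr5:92328080-92328249 (minus) for Cxcl9, chr5:92348890-92349059 (minus) for Cxcl10 and chr5:90891075-90891244 (plus) for Cxcl1.
Cxcl13: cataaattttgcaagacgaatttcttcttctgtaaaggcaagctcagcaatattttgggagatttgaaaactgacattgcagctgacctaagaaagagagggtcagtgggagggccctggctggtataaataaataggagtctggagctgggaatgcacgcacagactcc
Cxcl9: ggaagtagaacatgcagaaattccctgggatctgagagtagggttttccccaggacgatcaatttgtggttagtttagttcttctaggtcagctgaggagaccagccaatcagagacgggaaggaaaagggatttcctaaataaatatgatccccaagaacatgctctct
Cxcl10: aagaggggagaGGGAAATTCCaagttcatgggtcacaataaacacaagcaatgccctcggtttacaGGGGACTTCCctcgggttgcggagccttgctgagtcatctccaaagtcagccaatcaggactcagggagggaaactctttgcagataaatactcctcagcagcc
Cxcl1: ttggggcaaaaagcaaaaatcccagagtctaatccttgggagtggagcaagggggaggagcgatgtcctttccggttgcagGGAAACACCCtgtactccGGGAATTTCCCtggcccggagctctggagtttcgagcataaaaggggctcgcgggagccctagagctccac
The pattern was present in 3 of the 8 windows (Cxcl1, Cxcl2 and Cxcl10), against 3.37% of 32851 windows of the same length. The interferon-response pattern, GAAA repeated after any 2 bases and searched on both strands, was in 0 of the 8 and in 1.87% of all windows. The TATA box TATAAA, also searched on both strands, was in 2 of the 8 (Cxcl13 and Cxcl15) and in 8.4% of all windows. A match describes letters in the window and no match says only that they are not there. In the order of coding genes Cxcl15, Cxcl1 and Cxcl2 follow each other, and Art3 lies between Cxcl9 and Cxcl10.

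The values are signals on a linear scale, a probe set's brightness, and fold changes are differences in log2(signal + 16) with their SE from a limma fit over all 8 groups. A gene was called at a Benjamini-Hochberg adjusted p of at most 0.05. Different probe sets were not set against each other in level. The arrays were close in overall brightness, with array medians of 118 to 130 (129.58 at the highest), and pairwise correlations of 0.966 to 0.994. Lung genes were high on all 25 arrays, with Sftpc, the surfactant protein of type 2 cells, at 9531 to 11074 and Scgb1a1 of club cells at 11027 to 12188. Genes of neighbouring tissue varied widely, with Acta1 of skeletal muscle at 113 to 10439 and Adipoq of adipocytes at 292 to 6260. In whole lung, fewer cells of a type and less RNA per cell cannot be told apart. The labels describe each array as tissue of an animal of its group and give no batch.

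The genes fell into a variable and a steady set by their spread over the 25 arrays. Cxcl13, Cxcl5, Cxcl9 and Cxcl10 had an SD of 1.30, 1.18, 1.15 and 0.85 log2 units. Cxcl2 had 0.36, Cxcl14 0.28, Cxcl16 0.21, Cxcl12 0.20, Cxcl1 0.15 and Cxcl15 0.076. Within the groups single arrays of Cxcl13 had an SD of 0.99, and its 8 group means had an SD of 1.02. For Cxcl9 the within-group SD, 1.02, was above the 0.75 between group means, so that single arrays weigh heavily on both genes.

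Cxcl13, the B cell attractant of follicles, was higher in the lungs of mice given any of the 3 compounds without radiation. Its signal was 165 to 265 in the 4 controls, at 228, 265, 165 and 178. It was 1609.8, 2373 and 681 with fTyS, 1196, 984 and 1818 with SEW, and 811, 331 and 1185 with FTY. All 9 arrays of compound-treated lungs lay above the highest control array, so that the groups did not overlap in any of these comparisons. The log2 difference from control was 2.56 ± 0.70 with SEW, a 5.90-fold increase that passed the test (limma adjusted p = 0.0215, n = 3 and 4). With fTyS it was 2.65 ± 0.70 (adjusted p = 0.102 in limma) and with FTY 1.66 ± 0.70 (adjusted p = 0.211 in limma), neither of which passed. The adjustment ran within each comparison, and the unadjusted limma p was 0.00168 with SEW, 0.00123 with fTyS and 0.0286 with FTY. The call with SEW therefore does not rank SEW above fTyS. The SEW call was lost without control replicate 3 (2.46, adjusted p = 0.0606), SEW replicate 1 (2.61, 0.0717) or SEW replicate 3 (2.31, 0.0891).

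Cxcl13 was the 1 gene of the 8 called with SEW, where 14.6% of all genes tested were called. None of the 8 was called with fTyS or FTY by limma, against 0.178% and 2.73% of all genes, and 3 and 1 of them had an unadjusted p under 0.05. Groups did not overlap for 2 of the 8 with fTyS (Cxcl9 and Cxcl13; 11% of all genes), 3 with SEW (Cxcl9, Cxcl13 and Cxcl14; 27.6%) and 1 with FTY (Cxcl13; 15.3%). The mean of the 3 compounds against control, a contrast added after the values were seen, was 2.29 ± 0.55 for Cxcl13 (adjusted p = 0.014 in limma). With it 2 of the 8 were called, Cxcl13 and Cxcl9, against 10.3% of all genes. In irradiated lung the same mean against radiation gave 1.10 ± 0.62 for Cxcl13 (adjusted p = 0.327), and limma called none of the 8 (3.08% of all genes) with none at an unadjusted p under 0.05. The second Cxcl13 probe set gave 2.64 with SEW, 2.80 with fTyS and 1.74 with FTY, close to the first.

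**Figure D1:**
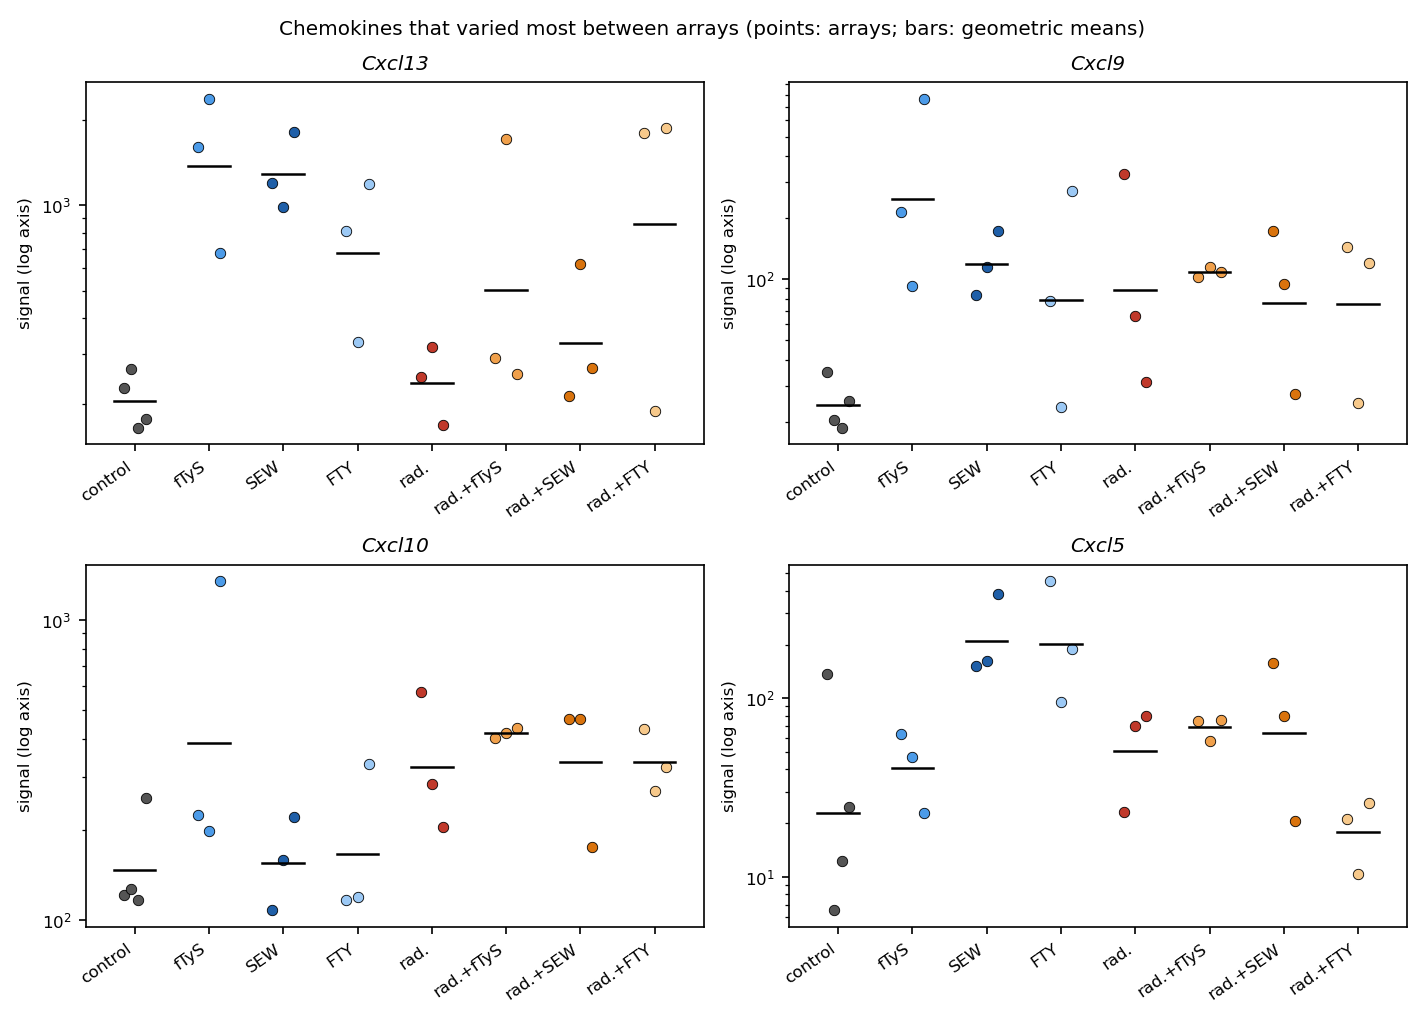
Signal of Cxcl13, Cxcl9, Cxcl10 and Cxcl5 on each of the 25 arrays (log axis) by treatment group, where points are arrays, bars are geometric means and rad. is radiation. All 9 compound-only arrays of Cxcl13 lie above the 4 controls (165 to 265), while single arrays such as fTyS replicate 3 for Cxcl10 (1340.1) stand far from their group.

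In irradiated lung Cxcl13 divided the groups internally. Radiation alone left it at 248, 318 and 169, overlapping control, with a log2 difference of 0.20 ± 0.70 (limma adjusted p = 0.935). Its signal was 289, 1719 and 255 with radiation+fTyS, 213, 621 and 268 with radiation+SEW, and 1797, 189 and 1871 with radiation+FTY. Each of these groups held both arrays within the range of the radiation group and arrays at least as high as 621, above it. The difference from radiation was 1.81 ± 0.75 with FTY (adjusted p = 0.16 in limma), and 2.87 without radiation+FTY replicate 2 (adjusted p = 0.0455). Irradiated SEW lungs were lower than SEW lungs without overlap, by -1.92 ± 0.75 on the log2 scale, which did not pass (adjusted p = 0.0842 in limma). From the highest to the lowest group mean the order was fTyS, SEW, radiation+FTY, FTY, radiation+fTyS, radiation+SEW, radiation and control, and each group overlapped the next.

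Adipocyte genes moved with Cxcl13 across the arrays. Of the 5 adipocyte markers listed, Adipoq, Cidec and Retn were tested, Lep was below the filter and Plin1 had no probe set of a single symbol. Their mean log2 level was 7.65 to 9.34 in the control group, 8.62 to 11.54 with fTyS, 9.43 to 11.54 with SEW and 8.75 to 10.66 with FTY. It was 8.05 to 8.84 with radiation, 7.35 to 11.36 with radiation+fTyS, 7.90 to 10.47 with radiation+SEW and 9.15 to 11.03 with radiation+FTY. The irradiated arrays with the 4 highest Cxcl13 signals (621 to 1871) were also those with the 4 highest adipocyte levels (10.47 to 11.36). Within the adipocyte range of the controls, fTyS replicate 3 had a Cxcl13 signal of 681 at 8.62. Just above that range, SEW replicate 2 had 984 at 9.43. FTY replicate 2 had 331 at 8.75, radiation+FTY replicate 2 had 189 at 9.15 and control replicate 2 had 265 at 9.34. With the adipocyte level as a covariate, added after the values were seen, the SEW difference was 1.16 (adjusted p = 0.114 in limma) and the mean of the compounds 1.07 (adjusted p = 0.0963), and neither was called. Every SEW array lay above every control array in adipocyte level. An effect of the compound on Cxcl13 and a difference in adipocyte content therefore cannot be told apart by this fit. The cause was not tested.

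**Figure D2:**
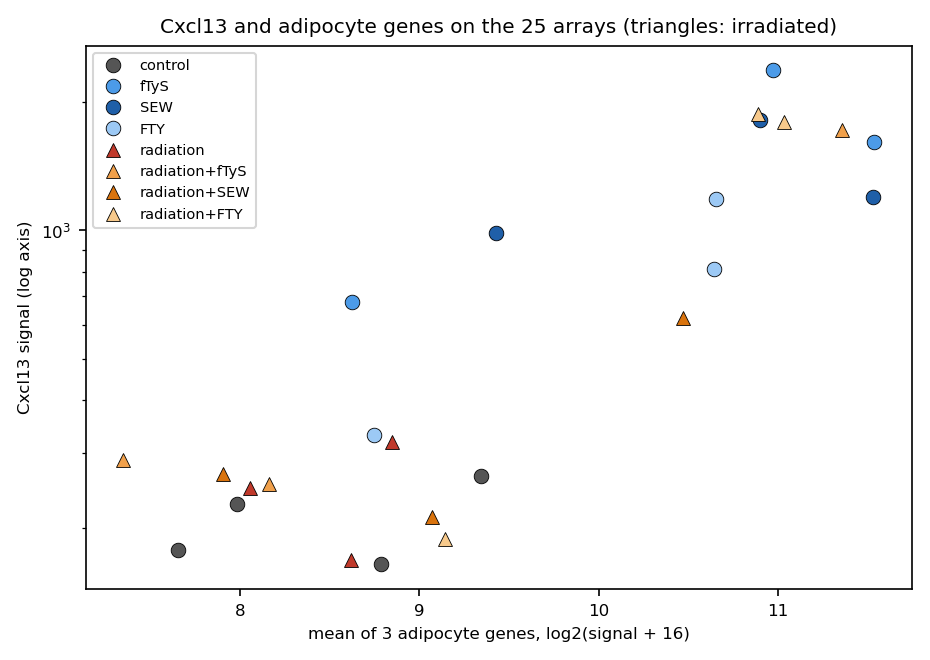
Cxcl13 signal (log axis) against the mean of the 3 adipocyte genes in log2(signal + 16) on the 25 arrays, coloured by group, with triangles for irradiated mice. At an adipocyte level of 10.47 or more every array has a Cxcl13 signal of at least 621, and below it the compound-only arrays lie between 331 and 984.

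Genes of B cells and plasma cells were set beside Cxcl13. None of the 7 B cell genes tested was called with any compound against control. Of the 6 plasma cell genes, 3 rose and 1 fell with SEW. Jchain, the joining chain of secreted antibody, rose by 3.0 ± 0.55 (limma adjusted p = 0.0022) and Ighm, the heavy chain of IgM, by 2.48 ± 0.48 (adjusted p = 0.00309). Mzb1, a chaperone of plasma cells, rose by 1.18 ± 0.29 (adjusted p = 0.0124), and Sdc1, a syndecan that epithelium also makes, fell by 0.20 ± 0.04 (adjusted p = 0.00342). Jchain also rose with fTyS by 2.87 (adjusted p = 0.0327), the 1 plasma cell gene called there, and with FTY by 2.46 (adjusted p = 0.0236), where Sdc1 fell by 0.19 (adjusted p = 0.02). The mean plasma cell level was 10.10 to 10.29 in control, 10.94 to 11.28 with fTyS, 11.11 to 11.36 with SEW and 10.69 to 11.07 with FTY, so that no compound group overlapped control. In irradiated lung it was highest on radiation+FTY replicates 3 and 1 (11.22 and 11.15), radiation+SEW replicate 2 (10.77) and radiation+fTyS replicate 2 (10.76). These were also the irradiated arrays highest in Cxcl13 and in adipocyte genes. At low adipocyte levels, fTyS replicate 3 had 10.94 (adipocyte level 8.62) and radiation+fTyS replicate 3 had 10.74 (8.16). Cxcr5, the receptor of Cxcl13, gave a log2 difference of 0.19 ± 0.37 with SEW (adjusted p = 0.752 in limma). Its signal was 106, 139, 174 and 166 in control, 343, 355 and 130 with fTyS, and 103, 135 and 250 with FTY. The mean B cell level was 7.73 to 8.36 in control and 8.70, 8.66 and 7.78 with fTyS. It was 7.81 to 8.26 with SEW and 7.46 to 8.51 with FTY. Among the fTyS arrays, replicate 3 was lowest in Cxcr5, in B cell genes and in Cxcl13. The part of these cells in the Cxcl13 signal was not tested. Over the 25 arrays, the genes whose pattern was most like that of Cxcl13 were Fcna, which encodes a ficolin (Pearson r = 0.928, Spearman rho = 0.875), and Isca1, an iron-sulfur assembly factor (r = 0.916, rho = 0.848). These correlations describe arrays that share groups and tissue composition.

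Cxcl9, the interferon-induced ligand of Cxcr3, was lowest in the control group. The controls gave 35.1, 20.3, 18.7 and 25.1. The signal was 214, 92.6 and 764 with fTyS, 83.9, 115 and 173 with SEW, and 77.9, 23.5 and 271 with FTY. The fTyS and SEW arrays all lay above the controls, and FTY replicate 2 lay among them. The log2 difference was 2.74 ± 0.73 with fTyS (adjusted p = 0.102 in limma), 1.74 ± 0.73 with SEW (adjusted p = 0.109) and 1.34 ± 0.73 with FTY (adjusted p = 0.333). The mean over the compounds was 1.94 ± 0.57 and passed (adjusted p = 0.0359). The controls of this gene were dim, and a pseudocount of 64 lowered the difference to 1.27 (adjusted p = 0.055). The call was also lost without control replicates 2, 3 or 4, FTY replicates 1 or 3, or SEW replicate 3, with differences of 1.69 to 1.96 and limma adjusted p of 0.0508 to 0.127. The second, dimmer probe set moved in the same direction by 0.32 with SEW, 0.44 with FTY and 0.67 with fTyS.

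Irradiated groups held intermediate Cxcl9 levels. Radiation gave 327, 66.2 and 31.4, a difference of 1.45 ± 0.73 from control that did not pass (limma adjusted p = 0.321), with its lowest array inside the control range. Radiation+fTyS was tight at 102, 115 and 109, radiation+SEW gave 173, 95 and 27.4, and radiation+FTY gave 143, 24.7 and 120 (120.48). The interaction of radiation with fTyS was -2.56 ± 1.06 (adjusted p = 0.248). From the highest to the lowest mean the order was fTyS, SEW, radiation+fTyS, radiation, FTY, radiation+SEW, radiation+FTY and control, and neighbours overlapped throughout.

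Cxcl10, the other Cxcr3 ligand of the set, was higher on most irradiated arrays. In unirradiated lung its median over 13 arrays was 158, from 108 to 1340.1. In irradiated lung the median over 12 arrays was 412, from 175 to 574. Averaged over the 4 backgrounds (no compound and the 3 compounds), a contrast added after the values were seen, the radiation difference was 0.78 ± 0.28 and narrowly missed the threshold (adjusted p = 0.0511 in limma). Without fTyS replicate 3 it was 0.996 (adjusted p = 0.00338). It also passed without control replicate 4 (0.84, 0.0357), SEW replicate 3 (0.84, 0.0491), FTY replicate 3 (0.90, 0.025), radiation replicate 3 (0.86, 0.0398) or radiation+SEW replicate 3 (0.89, 0.031). Genes of monocytes and macrophages moved with it: their mean log2 level was 9.40 to 10.20 on the irradiated arrays and 9.03 to 9.56 on the unirradiated ones, and 6 of 8 rose in the averaged contrast, where 20.8% of all genes were called. Ccr2, a receptor of monocytes, rose by 0.93 ± 0.11 (adjusted p = 1.45e-05), Cd68 by 0.63 ± 0.12, Itgam by 0.58 ± 0.10 and Cx3cr1 by 0.50 ± 0.10. Among unirradiated arrays their level was highest on fTyS replicate 3 and control replicate 4, the arrays highest in Cxcl10 within their groups. FTY replicate 3, also highest in Cxcl10 within its group (332), had the lowest level of the unirradiated arrays (9.03). The part of these cells in the Cxcl10 signal was not tested. Radiation alone gave 574, 284 and 204 against 121, 127, 117 and 254 in control, where control replicate 4 overlapped the irradiated arrays, and the difference was 1.06 ± 0.53 (adjusted p = 0.316). With fTyS the signal was 224, 198 and 1340.1, and the difference from control of 1.34 ± 0.53 (adjusted p = 0.245) became 0.47 (adjusted p = 0.548) without fTyS replicate 3. SEW (108, 158 and 220.1) and FTY (116, 119 and 332) overlapped control. Radiation+fTyS was again tight, at 405, 419 and 436, beside 467, 467 and 175 with radiation+SEW and 433, 268 and 324 with radiation+FTY. The order of means was radiation+fTyS, fTyS, radiation+SEW, radiation+FTY, radiation, FTY, SEW and control, with neighbours overlapping.

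Cxcl9 and Cxcl10 varied together within groups. The correlation of their deviations from the group means was 0.84 over the 25 arrays, given as a description. On fTyS replicate 3, SEW replicate 3, FTY replicate 3, radiation replicate 1 and radiation+FTY replicate 1 both genes were the highest of their group. In the control, radiation+fTyS and radiation+SEW groups the highest arrays of Cxcl9 and Cxcl10 differed. FTY replicate 3 also stood apart in T cell genes, with a mean log2 level of Cd3d, Cd3g and Cd8a of 10.37 against 7.16 to 8.12 on the other 24 arrays. Without it the mean compound difference of Cxcl9 was 1.69 and no longer passed (adjusted p = 0.0566 in limma). Most like Cxcl9 were Psmb8, a subunit of the immunoproteasome (r = 0.784, rho = 0.731), and Psme1 of its activator (r = 0.741, rho = 0.592). Most like Cxcl10 were Oasl2, an interferon-induced gene (r = 0.836, rho = 0.782), and Aif1 of macrophages (r = 0.821, rho = 0.788). Cxcr3 rose by 0.25 ± 0.08 with the mean of the 3 compounds (adjusted p = 0.0497 in limma), and Dpp4, a protease that trims these chemokines, fell by 0.32 with radiation (adjusted p = 0.0222).

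Among the neutrophil attractants, Cxcl1 varied little on its brightest probe set. Its signal ran from 96.3 to 147 in irradiated lung and from 98 to 149 in unirradiated lung, with medians of 122 in both. The radiation difference was 0.17 ± 0.12 (limma adjusted p = 0.492, 95% interval -0.07 to 0.41). A second, dimmer probe set stood at 83.7 to 88.7 in control, below all radiation arrays (94.6 to 116) and all SEW arrays (99.45 to 145). It differed from control by 0.22 ± 0.15 with radiation and 0.38 ± 0.15 with SEW, and a further probe set gave 0.20 and 0.23; neither was in the gene-level test. Cxcl2 was dim, at 21.6 to 106 over all arrays, and radiation gave 106, 47.8 and 66.3 against 86.9, 21.6, 28 and 65.6 in control. Its radiation difference of 0.50 ± 0.27 in the fit without a filter did not pass (adjusted p = 0.442). In the same comparison 4 of 6 neutrophil genes rose, among them Csf3r by 3.29 ± 0.46 (adjusted p = 0.000357) and S100a9 by 3.09 ± 0.51 (adjusted p = 0.00129), with S100a8 at 2.41 ± 0.44 (adjusted p = 0.00274) and Mmp9 at 2.01 ± 0.26 (adjusted p = 0.000318). None of the 8 tested CXC chemokines was called with radiation alone by limma, where 4.4% of all genes were called, and none had an unadjusted p under 0.05. Groups of no member were apart, against 13.8% of all genes. The mean neutrophil level was 7.99 to 9.01 in control, 10.33 to 10.79 with radiation, 8.86 to 9.33 with radiation+fTyS, 8.34 to 9.34 with radiation+SEW and 9.40 to 10.60 with radiation+FTY. Neighbouring group means of Cxcl1, from SEW at the top to fTyS, overlapped, as did those of Cxcl2, from radiation at the top to control. Cxcl1 was most like Pigz (r = 0.733, rho = 0.703) and Igsf11 (r = 0.715, rho = 0.6485).

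Cxcl5, an epithelial neutrophil attractant, was above control with SEW. The controls gave 136, 6.51, 12.3 and 24.7, where replicate 1 stood above the others. The controls other than replicate 1 were dim, close to or below the pseudocount added to each signal. The size of a difference from control therefore depends on the pseudocount, and Cxcl5 differences with another pseudocount are not given here. SEW gave 151, 162 and 382 and FTY gave 451, 95.4 and 188, while fTyS gave 63.3, 47.1 and 22.9. All SEW arrays lay above all controls and above all fTyS arrays, and all FTY arrays lay above all fTyS arrays but not above control replicate 1. In the fit without a filter, the difference from control was 2.35 ± 0.60 with SEW and was called (adjusted p = 0.0188 in limma, where 8.82% of all genes were called). It was 2.30 ± 0.60 with FTY (adjusted p = 0.0565) and 0.38 ± 0.60 with fTyS (adjusted p = 0.814). Without control replicate 1 these became 2.89 with FTY, which passed (adjusted p = 0.00725), and 0.97 with fTyS (adjusted p = 0.463). FTY also passed without FTY replicate 2 (2.79, adjusted p = 0.0444). The direct differences of fTyS from SEW, -1.98 ± 0.64 (95% interval -3.31 to -0.64, adjusted p = 0.135), and from FTY, -1.92 ± 0.64 (-3.25 to -0.59, adjusted p = 0.809), did not pass in limma. SEW and FTY differed by -0.05 (-1.38 to 1.28), an interval that leaves room for a difference of more than 2-fold either way.

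Among the irradiated groups Cxcl5 had its lowest mean with FTY. That mean log2 level was 5.11, against 6.10 with radiation alone, and the 2 groups overlapped. With an array of either group left out, their difference was not called (limma adjusted p of 0.365 to 0.672, no filter). Radiation+FTY gave 21.2, 10.4 and 26.1, below all arrays of FTY without radiation. The radiation+FTY arrays, like most controls, were close to or below the pseudocount. The sizes of the difference from FTY and of the interaction therefore also depend on it. The difference from FTY without radiation was -2.67 ± 0.64 and passed in the fit without a filter (adjusted p = 0.0141 in limma, with 8.63% of all genes called). The interaction of radiation with FTY was -3.29 ± 0.87 (adjusted p = 0.042; 3.72% of all genes called). Over the mean of the compounds, Cxcl5 rose by 1.68 ± 0.47 without radiation (adjusted p = 0.0379; 6.2% of all genes called), a call lost without control replicates 2, 3 or 4 (0.144, 0.175 and 0.0815), fTyS replicates 1 or 2 (0.0636 and 0.0567), SEW replicate 3 (0.0686) or FTY replicates 1 or 3 (0.066 and 0.0505). Radiation gave 23.2, 70.0 and 79.4, radiation+fTyS gave 74.4, 58.0 and 75.3, and radiation+SEW gave 158, 79.4 and 20.5. The group means ran in the order SEW, FTY, radiation+fTyS, radiation+SEW, radiation, fTyS, control and radiation+FTY, and only FTY and radiation+fTyS were neighbours without overlap. Single arrays decided these calls. Without SEW replicate 3 the SEW difference was 1.95 (adjusted p = 0.107), without SEW replicate 1 it was 2.58 (0.0518), and without control replicates 2 or 3 it was 2.03 (0.0606) and 2.13 (0.0685). Radiation+FTY against FTY lost its call without FTY replicate 1 (-2.13, adjusted p = 0.0745) or radiation+FTY replicate 2 (-2.47, adjusted p = 0.0554). The interaction kept its call in 3 of 13 such fits, those without control replicate 1, FTY replicate 2 or radiation replicate 1.

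Inducers of these chemokines were counted from a separate list. Among 15 tested genes of inducers and signalling, 2 rose and none fell with radiation. Il1b, a cytokine that induces neutrophil attractants, was 1886, 1251 and 873 with radiation against 248, 150.46, 178 and 454 in control, groups without overlap, and rose by 2.36 ± 0.33 (adjusted p = 0.000357 in limma). Il17ra, a receptor of interleukin 17, rose by 0.62 ± 0.14 (adjusted p = 0.0161). Of all genes, 4.4% were called with radiation. With SEW alone, where 14.6% of all genes were called, 2 of the 15 fell, Il17ra by 0.45 (adjusted p = 0.0397) and Nfkbiz, a co-regulator of NF-kB targets, by 0.40 (adjusted p = 0.0299). When a compound was added to radiation, Il1b fell by 1.81 for SEW, 1.76 for fTyS and 1.30 for FTY (adjusted p = 0.0124, 0.0234 and 0.0496), and Il17ra fell by 0.80 for SEW (adjusted p = 0.0116). Tnf, Il6, Il17a, Csf3, Ifng and Lta were below the filter, as was Cxcr2 among the receptors. No CXC chemokine of the 8 was called when a compound was added to radiation. In limma 0.858% of all genes were called there with fTyS, 2.48% with SEW and 3.02% with FTY, and 0, 0 and 1 of the 8 had an unadjusted p under 0.05. The groups were apart for 0, 1 (Cxcl1) and 0 of the 8, against 17.7%, 27.1% and 27.7% of all genes.

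Cxcl16, the membrane-bound ligand of Cxcr6, was higher with radiation in the SEW background on one of its probe sets. Its signal was 465, 564 and 503 with SEW and 637, 697 and 800.2 with radiation+SEW, without overlap. The difference of 0.46 ± 0.13 passed (adjusted p = 0.0175 in limma) and was the 1 call among the 8 in this comparison, where 17.7% of all genes were called and the groups of 4 of the 8 (Cxcl13, Cxcl14, Cxcl15 and Cxcl16) and of 42.2% of all genes were apart. SEW against control was -0.30 ± 0.12 (adjusted p = 0.0934). The other Cxcl16 probe set gave 0.08 ± 0.12 for radiation+SEW against SEW and 0.04 for SEW against control, so the 2 probe sets disagree. The call was lost with quantile normalization (0.42, adjusted p = 0.0514) and without SEW replicate 1 (0.40, 0.0839), SEW replicate 3 (0.46, 0.0529) or radiation+SEW replicate 3 (0.38, 0.103).

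Radiation+FTY gave 717, 789 and 711 for Cxcl16, above all FTY arrays (634, 625 and 547), a difference of 0.29 ± 0.13 that did not pass (adjusted p = 0.139 in limma). None of the 8 was called in that comparison (14.1% of all genes were), 1 had an unadjusted p under 0.05, and the groups of 1 of the 8 and of 31.8% of all genes were apart. Radiation+FTY also lay above radiation+fTyS (696, 528 and 655), with radiation+fTyS minus radiation+FTY at -0.24 ± 0.13 (adjusted p = 0.297 in limma). The means ran in the order radiation+FTY, radiation+SEW, radiation, control, radiation+fTyS, fTyS, FTY and SEW, and neighbours overlapped. Adam10, which sheds Cxcl16, fell by 0.25 with SEW (adjusted p = 0.00318) and by 0.18 with FTY (adjusted p = 0.0487), and rose by 0.25 with radiation in the SEW background (adjusted p = 0.00379). Cxcr6 fell by 0.43 with radiation in the FTY background (adjusted p = 0.0168). Most like Cxcl16 over the 25 arrays were Gbf1 (r = 0.86, rho = 0.853) and Gpr137b-ps (r = 0.838, rho = 0.839).

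**Figure D3:**
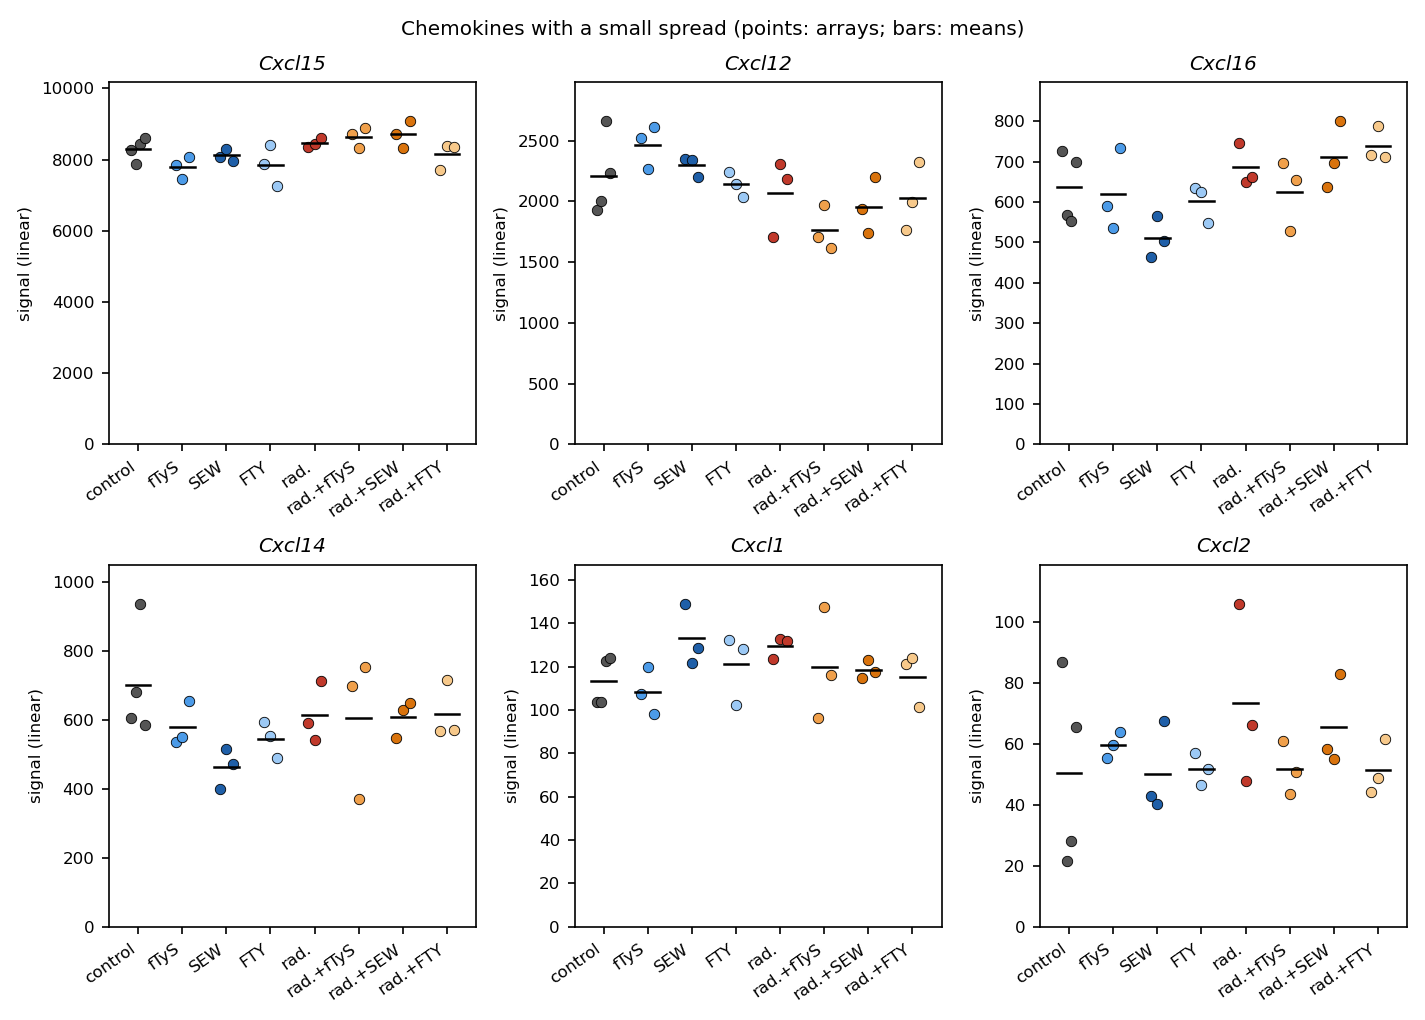
Signal (linear axis from 0) of Cxcl15, Cxcl12, Cxcl16, Cxcl14, Cxcl1 and Cxcl2 on each of the 25 arrays by treatment group, where points are arrays, bars are means and rad. is radiation. The SEW arrays of Cxcl14 (398 to 515) lie below the 4 controls (587 to 937), and those of Cxcl16 (465 to 564) below the radiation+SEW arrays (637 to 800.2).

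Cxcl14, of epithelium and stroma, was lowest with SEW. The signal was 398, 515 and 473 against 604, 682, 937 and 587 in control, without overlap, and the difference of -0.57 ± 0.19 lay just outside the threshold (adjusted p = 0.051 in limma). It passed without control replicate 1 (-0.63, adjusted p = 0.0416) or control replicate 4 (-0.65, adjusted p = 0.043). With the adipocyte level as a covariate, which itself differed between SEW and control without overlap, it was -0.31 (adjusted p = 0.268 in limma). The second probe set gave -0.53. fTyS gave 534, 551 and 656 and FTY 593, 553 and 491, with differences from control of -0.25 and -0.33 that did not pass (adjusted p = 0.527 and 0.36 in limma). Irradiated arrays ran from 369 to 753. The order of means was control, radiation+FTY, radiation, radiation+SEW, radiation+fTyS, fTyS, FTY and SEW, and neighbours overlapped. Soga1 (r = 0.854, rho = 0.823) and Zc3h7b (r = 0.843, rho = 0.759) were most like Cxcl14.

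Cxcl12, the ligand of Cxcr4, gave a different answer by probe set. On the brighter probe set it was 1709.8, 1969 and 1613 with radiation+fTyS against 2518, 2271 and 2615 with fTyS, without overlap, a difference of -0.48 ± 0.13 (adjusted p = 0.0909 in limma). The second probe set, of similar brightness, gave 0.00 ± 0.13 for the same arrays. Averaged over the 4 backgrounds, radiation lowered the brighter probe set by -0.22 ± 0.06 (adjusted p = 0.0146), while the other probe sets gave 0.05 and, on a dim one, 0.27. In control the brighter probe set ran from 1932 to 2660 (2659.9), and with radiation alone from 1704 to 2310 (2309.98). From fTyS, the highest mean, the order went through SEW, control, FTY, radiation, radiation+FTY and radiation+SEW to radiation+fTyS, with neighbours overlapping. Cxcr4 fell by 0.53 ± 0.17 with SEW (adjusted p = 0.0437 in limma). Cdk19 (r = 0.803, rho = 0.795) and Syne1 (r = 0.788, rho = 0.777) were most like Cxcl12.

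Cxcl15, the epithelial chemokine of lung, hardly varied. Its signal ran from 7268 to 8608 over 13 unirradiated arrays and from 7702 to 9076 over 12 irradiated arrays. Averaged over the backgrounds, radiation raised it by 0.08 ± 0.02 on the log2 scale (adjusted p = 0.0211 in limma), a call lost with median centring (0.09, adjusted p = 0.0687). With Cxcl16 (0.22 ± 0.06, adjusted p = 0.0182) and Cxcl12 this made 3 of 8 genes called in the averaged contrast, 2 higher and 1 lower, where 20.8% of all genes were called. The second probe sets gave 0.07 for Cxcl15 and 0.06 for Cxcl16. The fTyS arrays (7843, 7455 and 8069.5) lay below the radiation+fTyS arrays (8711, 8322 and 8882), a difference of 0.15 ± 0.05 that did not pass (adjusted p = 0.182 in limma). In that comparison none of the 8 was called (0.456% of all genes were), 2 had an unadjusted p under 0.05, and the groups of 2 of the 8 (Cxcl12 and Cxcl15) and of 15.8% of all genes were apart. Its means ran from radiation+SEW through radiation+fTyS, radiation, control, radiation+FTY, SEW and FTY to fTyS, and neighbours overlapped. Pdzd2 (r = 0.877, rho = 0.842) and Tns3 (r = 0.877, rho = 0.817) were most like Cxcl15.

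**Figure D4:**
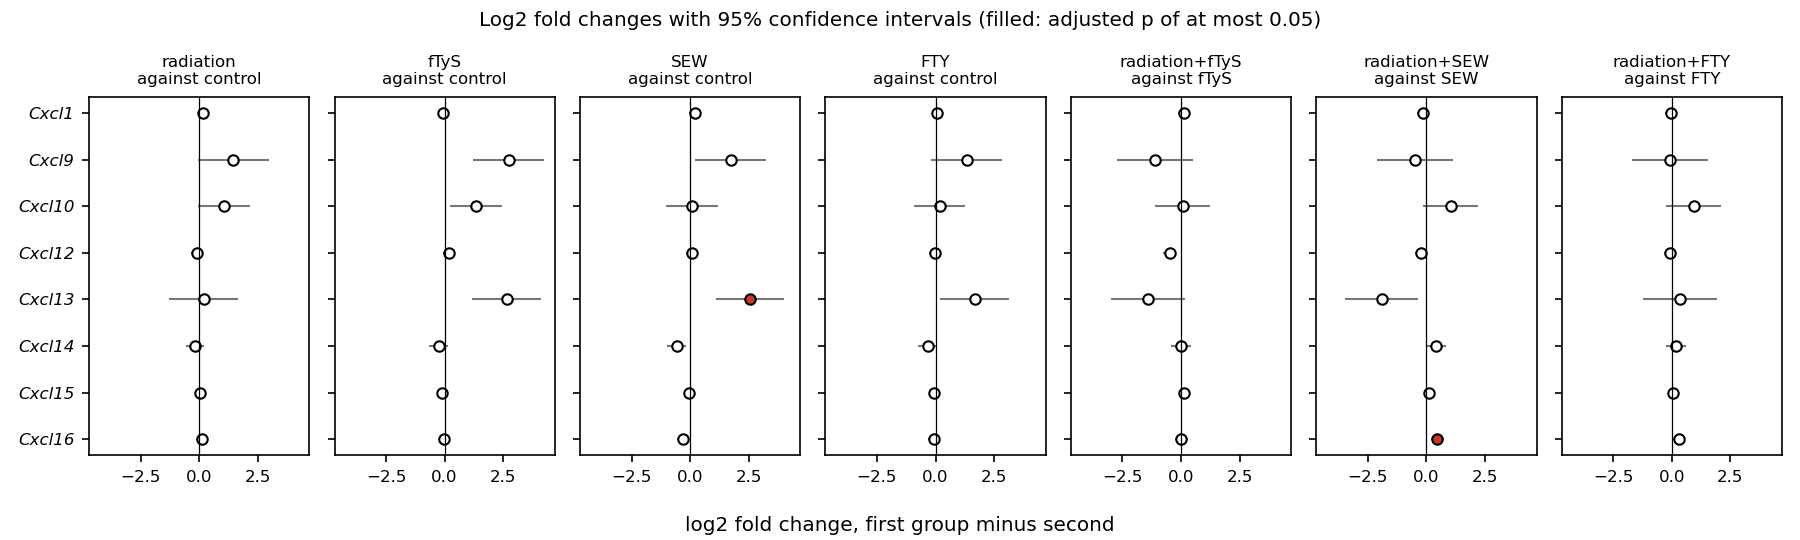
Log2 fold changes of the 8 tested genes with 95% confidence intervals from the limma fit, in 7 comparisons named above each panel, with calls filled. Intervals span about 3 log2 units for Cxcl13 and Cxcl9 and far less for Cxcl15, and the filled points are Cxcl13 with SEW (2.56) and Cxcl16 for radiation+SEW against SEW (0.46).

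The compounds were compared directly at their shared dose. None of the 8 genes was called between any of the 3 pairs, with or without radiation, by limma. Of all genes, 0% were called for fTyS against FTY, 1.55% for fTyS against SEW and 0% for FTY against SEW, and 3.95%, 0% and 0% between the same pairs in irradiated lung. Unadjusted p was under 0.05 for 2 of the 8 in fTyS against SEW, Cxcl1 and Cxcl10, and for none in the other pairs. Groups were apart for 1 of the 8 in fTyS against FTY (Cxcl12; 10.2% of all genes), 2 in fTyS against SEW (Cxcl1 and Cxcl14; 25.6%), and none in FTY against SEW (18.1%). In irradiated lung they were apart for 1 in radiation+fTyS against radiation+FTY (Cxcl16; 21.6%) and for none in the other pairs (16.4% and 15.4%). Cxcl13 differed by 0.09 between fTyS and SEW with an interval of -1.48 to 1.67, by 0.99 between fTyS and FTY (-0.58 to 2.56) and by -0.90 between FTY and SEW (-2.47 to 0.68). These intervals include differences of more than 2-fold, so the data do not show that the compounds act alike on Cxcl13. The interactions of radiation with fTyS, SEW and FTY called 0 of the 8 in limma (1.35%, 13.9% and 6.84% of all genes), with 2, 0 and 0 at an unadjusted p under 0.05. The interaction with the mean of the compounds also called 0 (10.7% of all genes), with 1 (Cxcl9) at an unadjusted p under 0.05.

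Other CXC family members and receptors were counted from a list of 15 genes outside the 10, of which 13 were tested. None rose and 1 (Dpp4) fell with radiation, where 4.4% of all genes were called. None rose and 2 (Cxcr4 and Adam10) fell with SEW, a share near the 14.6% of all genes called. With radiation in the SEW background, where 17.7% of all genes were called, 3 rose, namely Cxcl17 by 0.84 ± 0.17 (adjusted p = 0.00259 in limma), Cxcl3 by 0.61 ± 0.17 (adjusted p = 0.0159) and Adam10, and none fell. Cxcl17, a chemokine of mucosal epithelium, also rose in the fTyS background by 0.87 ± 0.17 (adjusted p = 0.034) and in the FTY background by 0.52 ± 0.17 (adjusted p = 0.0465). With radiation alone its difference was -0.03 ± 0.16 (adjusted p = 0.962). The list's median difference was 0.09 with SEW, beside -0.02 over all genes tested, and -0.01 with radiation, beside -0.01.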

How the data were processed

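Lung RNA (6 µg per array) of 25 mice was hybridised to Affymetrix arrays. Deposited signals are intensities, linear and not logged, and GCOS is named without a version in the submitters' processing notes. The summary method and scaling target are not given in the sources used here. Of 45101 probe sets, 64 controls, 932 with several symbols and 9160 without a symbol were left out. Intensities became log2(signal + 16). Each gene was its probe set with the highest mean, and a gene was tested when that mean exceeded 6.49, the 40th percentile among probe sets.

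One limma fit (3.58.1 in R 4.3.3; 8 group means, eBayes with trend, 17 residual df) gave 19 comparisons and 4 contrasts added after the values were seen, tested two-sided with Benjamini-Hochberg adjustment over 12937 genes. The pipeline was tested on simulated data. The p-values measure only the spread between these samples, and the number of arrays limits precision. Members, lists and rules were chosen with earlier results of these data known. All 10 members are named, list genes where called (at most 4 per list and comparison, largest first), and the 2 genes of highest Pearson r for each tested member. Csf3r and S100a9 follow that rule. Cxcr5, Cxcl17 with radiation alone and the B cell genes were given as context after their values were seen.

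Replicate numbers come from the labels. Every same-number pair deviated together (r over 0.1) in 5 comparisons: FTY against SEW, fTyS against control, radiation against control, and radiation+fTyS against either of its parts. Alternatives were quantile normalization, median centring, pseudocounts 1 and 64, no filter, a 60th percentile filter, the mean of all probe sets, the replicate block, only the arrays compared, each array left out and an adipocyte covariate.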

Additional observations from a re-analysis of the deposited data

Results flagged for a closer look

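Among the 4 control arrays of Cxcl10, replicate 4 (254) lay far from the others (117 to 127), with a gap of 0.895 of the whole range. Chance alone flags about 1 in 20 such groups.

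Effects of radiation differed between backgrounds, by the interaction term of limma, for 4 of the CXC chemokines and listed genes. Of all genes, 13.9% were called by the interaction with SEW and 10.7% by that with the mean of the 3 compounds. The interaction with FTY called 3.72% in the fit without a filter. For Cxcl5 the radiation effect was lower in the FTY background than without a compound by -3.29 ± 0.87 (adjusted p = 0.042, fit without a filter). Most fits with an array left out lost that call. Its size depends on the pseudocount, since the radiation+FTY arrays and most controls of Cxcl5 were dim. For Cxcl17 the radiation effect was higher in the SEW background by 0.87 ± 0.23, and by 0.77 ± 0.18 over the mean of the 3 compounds. For Adam10 it was higher by 0.35 ± 0.07 with SEW and by 0.25 ± 0.06 over the mean. For Il1b it was lower by -1.27 ± 0.39 over the mean of the compounds (adjusted p = 0.0401).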

How the results depend on the processing

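Of 442 counts of called CXC chemokines under alternatives, 409 stayed within 1.5 times the reported count. Most comparisons had 0 calls, and a count of 0 that stayed at 0 is among the 409, so this share says little about the calls. Of 179 fold changes of called members under alternatives, 154 kept their call, 24 lost it and 1 was reversed. SEW against control, with 1 call, had 2 without a filter, 2 with a filter at the 60th percentile, 2 with only the arrays compared and 0 with the adipocyte covariate. Radiation+SEW against SEW, also 1, had 0 with quantile normalization, 0 with the mean of all probe sets and 2 with only the arrays compared. The mean of the 3 compounds against control, at 2, had 1 with a pseudocount of 64, with the 60th percentile filter, with the mean of all probe sets and with the replicate block, and 0 with the adipocyte covariate. Comparisons with 0 calls had 1 in radiation+FTY against FTY (no filter, and adipocyte covariate), in the interaction of radiation with FTY (no filter), in that with SEW (only the arrays compared) and in radiation+fTyS against radiation+FTY (adipocyte covariate; Cxcl16, -0.39, adjusted p = 0.0225 in limma). Radiation averaged over the backgrounds went from 3 to 0 with the mean of all probe sets, where Cxcl12 turned from -0.22 to 0.0293. With the adipocyte covariate Cxcl16 for radiation+SEW against SEW was 0.31 (adjusted p = 0.0165). The causes of these moves were not tested.

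With arrays left out, the counts ran from 0 to 2 for SEW against control and for the mean of the compounds, 0 to 1 for radiation+SEW against SEW and for radiation+FTY against radiation, and 3 to 4 for radiation averaged; all others stayed at 0. Cxcl13 with SEW ran from 2.31 to 2.75 and lost its call without control replicate 3 (2.46, adjusted p = 0.0606), SEW replicate 1 (2.61, 0.0717) or SEW replicate 3 (2.31, 0.0891). For the mean of the compounds Cxcl13 lost its call without control replicate 3 (2.19, adjusted p = 0.0704), and Cxcl9 without control replicates 2, 3 or 4 (0.0878, 0.127 and 0.0673), FTY replicates 1 or 3 (0.0508 and 0.0566) or SEW replicate 3 (0.0603).

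With the replicate number as a block, Cxcl13 with SEW was 2.50 (adjusted p = 0.0515) and Cxcl9 for the mean of the compounds 1.95 (adjusted p = 0.0578), neither called. The block, in which control replicate 4 has no partner, called Cxcl14 with SEW (-0.65, adjusted p = 0.0393) and Cxcl10 for radiation averaged (0.84, adjusted p = 0.0435), which was also called with pseudocount 1 and with the 60th percentile filter. Same-number correlations of residuals ran from -0.81 to 0.78. In the 5 comparisons where same-number arrays deviated together, no CXC chemokine was called without the block, so no call could be lost there. The block added none. Quantile normalization and median centring moved no comparison's median by over 0.1. Signal over background limits Cxcl2, Cxcl5 and the controls of Cxcl9.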
